A study of Mus musculus with 6 samples.

Results

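The genes examined here were 7 oncofetal genes, Hmga2, Hmga1, Igf2bp1, Igf2bp2, Igf2bp3, Lin28b and Plagl1, of 22623 genes in the count tables. They were selected on measured values, since earlier results of these nuclei placed most of them in tumor nuclei, so their restriction to tumor nuclei is described without a test. All 7 symbols were found once each in all 6 libraries. RNA of single nuclei (snRNA-seq) had been counted in tumors formed by TC1 cells, which the study describes as epithelial lung tumor cells of the mouse. The tumors grew for 24 days under the flank skin of conditional MCT2 (Slc16a7) mice on a C57BL/6 background. Per the study's methods, both groups were MCT2loxP/loxP mice with a tamoxifen-inducible Cre, aged 8 weeks at the start. The KO group (3 libraries) received tamoxifen once daily for 5 days and TC1 cells 2 days later, whereas the CO group (3 libraries) received vehicle, so the deletion concerned host cells only and tamoxifen itself was given to 1 group only. The promoter that drives the Cre is not given in the sources used here, and the tissue label reads lung although the tumors grew under the skin.

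Most of these genes are active in the embryo, low in many adult tissues and expressed again in some tumors, although Igf2bp2 stays on in adult tissue and Plagl1 is often silenced in tumors. Hmga2 and Hmga1 encode small architectural proteins that bind AT-rich DNA, the Igf2bp genes encode RNA-binding proteins that hold messengers in the cytoplasm and protect them from decay, Lin28b encodes a protein that blocks maturation of the let-7 microRNAs, and Plagl1 encodes an imprinted zinc-finger transcription factor of fetal growth. The let-7 family in turn represses Hmga2, Lin28b and the Igf2bp messengers through matches to its seed (bases 2 to 8), a double-negative loop that separates fetal from adult programs.

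The seed match is therefore the sequence feature shown first, although let-7 itself was not measured here. Of 11 mature let-7 family names in the RefSeq miRNA table (GRCm38.p6), 10 shared the seed GAGGUAG. The mature sequences below carry that seed in capitals.
mmu-let-7a-5p: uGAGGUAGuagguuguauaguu
mmu-let-7g-5p: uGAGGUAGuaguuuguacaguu
mmu-miR-98-5p: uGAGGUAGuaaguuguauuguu

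The complementary motif CTACCTC, searched on the messenger strand only, occurred in the longest annotated 3′ UTR of 6 of the 7 genes. Across 21022 protein-coding genes with a 3′ UTR, 9.0% held it. Hmga2 held 4 matches in a 3′ UTR of 3014 bases, Lin28b held 4 in 4445 bases and Igf2bp1 held 4 in 6337 bases, whereas Hmga1, Igf2bp2 and Igf2bp3 held 1 each and Plagl1 held 0. Among genes with a 3′ UTR of like length (0.8 to 1.25 times), 4 or more matches were found in 0.1% for Hmga2, 0.3% for Lin28b and 0.3% for Igf2bp1, while at least 1 match was found in 8.2%, 12.1% and 13.3% for Hmga1, Igf2bp2 and Igf2bp3. The windows below, from the GENCODE vM21 transcripts on GRCm38 and written 5′ to 3′ on the strand of the messenger, show the match in capitals for all 4 Hmga2 sites and for 1 site of each other gene. A match is a description of letters and no measure of repression.
Hmga2 site 1, chr10:120364218-120364246, minus strand: gccgacattcaatttCTACCTCagcatca
Hmga2 site 2, chr10:120362981-120363009, minus strand: ccccactcctcaataCTACCTCtgaatgc
Hmga2 site 3, chr10:120362543-120362571, minus strand: ctgatttgcaaggaaCTACCTCcacactt
Hmga2 site 4, chr10:120361685-120361713, minus strand: aatcaaaacacactaCTACCTCttaagtc
Hmga1 site 1, chr17:27563277-27563305, plus strand: tcctctgttcacaaaCTACCTCtggacgg
Igf2bp1 site 2, chr11:95959351-95959379, minus strand: cagcagtgctattaaCTACCTCagcccca
Igf2bp2 site 1, chr16:22059467-22059495, minus strand: acacacaaataaaagCTACCTCaggtgtt
Igf2bp3 site 1, chr6:49086781-49086809, minus strand: tgcatttttactcaaCTACCTCaggtatt
Lin28b site 1, chr10:45381016-45381044, minus strand: acccgggcgggaagtCTACCTCatgcaag

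The 6 libraries held 13252572 to 22057084 unique molecular identifiers (UMIs, the counted molecules), and 17415 nuclei were analyzed after filters (7608 CO, 9807 KO). Nuclei were put into classes by the UMIs of marker genes, which gave 9292 tumor, 5014 macrophage and 661 T/NK nuclei, smaller host classes and 2065 unassigned nuclei. The tumor list rested mainly on Mecom and Slit2, a transcription factor and a secreted guidance ligand, and stood at 109 per 10000 UMIs in tumor nuclei, 16.9 in macrophage nuclei and 43.0 in T/NK nuclei. The median UMIs per nucleus were 5088.5, 1166.5 and 1158 in these classes. In all, 23 barcode sequences recurred in 3 or more libraries and were left out with their 99 nuclei, and 38 occurred in exactly 2 libraries. Slc16a7 was not lower in the libraries labelled KO (0.46 on the log2 scale over all nuclei, with SE 0.54 and an edgeR adjusted p of 0.718). In macrophage nuclei, which held 852 of its 1165 UMIs, it was at 0.24 (SE 0.29, edgeR adjusted p = 0.841). In tumor nuclei, which held 144, it was at 1.45 (SE 0.62, edgeR adjusted p = 0.589). Whether the counted 3′ end lies in the deleted part is not given, so KO and CO below denote the labels. The fits turned on KO replicate 1, with 0% of genes called with it and 18.4% without it in tumor nuclei, so results without it are given where they differ. The study calls the 3 libraries of a group biological replicates, and the labels name no animals, so p-values measure the spread between these libraries.

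Most counts of the 7 genes fell in tumor nuclei, but to different degrees. Tumor nuclei held 83.9% ± 6.2 (SD, n = 6 libraries) of all UMIs of the analyzed nuclei. They held 95.3% ± 2.0 of the Hmga2 UMIs, 94.0% ± 2.1 of Igf2bp1, 94.0% ± 2.2 of Igf2bp2 and 92.0% ± 3.3 of Plagl1, close to the 96.0% ± 1.9 of the tumor list itself. For Hmga1 (82.3% ± 7.2), Igf2bp3 (83.0% ± 7.4) and Lin28b (82.5% ± 8.9), the share was near that of all genes. By this share 4 genes were near the tumor list and 3 near the average of all genes. For Lin28b the share reflects unassigned nuclei, which held 121 of its 184 UMIs outside tumor nuclei, whereas its level was higher in tumor than in macrophage and T/NK nuclei in 6 of 6 libraries.

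Hmga2 (ENSMUSG00000056758, GRCm38 chr10:120361275-120476469, minus strand) was carried by nearly every tumor nucleus. Its level was 3957, 4195 and 4701 CPM (counts scaled to 1000000 UMIs of that class and library) in CO tumor nuclei and 4737, 6496 and 6633 CPM in KO. The lowest KO library lay just above the highest CO library, so the groups did not overlap, although KO replicate 1 and CO replicate 3 were nearly equal. The edgeR quasi-likelihood fit of counts summed per library put KO against CO at 0.55 on the log2 scale (SE 0.31, adjusted p = 0.589). In tumor nuclei 5.2% of the 13072 genes tested had every KO library above every CO library, and 7.57% had every KO library below.

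In macrophage nuclei, Hmga2 was counted at 631, 477 and 655 CPM in CO and 783, 1836 and 1386 CPM in KO. That was 17.8% ± 6.0 (SD, n = 6) of the tumor level, beside 16.8% ± 3.8 for the tumor list in the same nuclei. In T/NK nuclei, Hmga2 stood at 39.5% ± 17.8 of the tumor level and the tumor list at 37.4% ± 13.2. The ratio of the Hmga2 percentage to that of the tumor list averaged 1.05 in macrophage and 1.03 in T/NK nuclei, so in both host classes Hmga2 and the tumor list stood in nearly the ratio found in tumor nuclei. These class levels rested largely on few nuclei. The 180 of 5014 macrophage nuclei with 10 or more tumor-list UMIs held 3582 of the 6407 Hmga2 UMIs. The 76 such nuclei of 661 T/NK nuclei held 2337 of 2717. With classes from clusters in place of marker counts, the macrophage value was 9.19% and the T/NK value 69.4%. That T/NK class took in a cluster of 300 nuclei with the tumor list at 96.7 per 10000 UMIs and the T/NK list at 13.3. KO replicate 2 had 43 T/NK nuclei, the fewest.

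The Igf2bp genes divided in the same way. Igf2bp1 (ENSMUSG00000013415, chr11:95957163-96005940, minus strand), which binds coding-region and 3′ UTR sites of growth messengers, was counted at 167, 172 and 142 CPM in CO tumor nuclei and 196, 145 and 178 CPM in KO. Igf2bp2 (ENSMUSG00000033581, chr16:22059009-22163299, minus strand), a relative that is also a known target of Hmga2, was counted at 350.2, 383 and 425 CPM in CO and 361, 463 and 445 CPM in KO. For both genes the groups overlapped. In macrophage nuclei they stood at 18.5% ± 3.5 and 18.6% ± 3.4 of the tumor level (SD, n = 6), and in T/NK nuclei at 42.7% ± 19.1 and 40.6% ± 12.0, again near the tumor list. The 76 T/NK nuclei with 10 or more tumor-list UMIs held 70 of the 88 Igf2bp1 UMIs and 185 of the 220 Igf2bp2 UMIs of that class.

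Igf2bp3 (ENSMUSG00000029814, chr6:49085223-49214957, minus strand), the third relative and a marker of many carcinomas, showed another distribution. Tumor nuclei held 30.2, 31.8 and 37.4 CPM in CO and 32.8, 15.4 and 20.65 CPM in KO. Macrophage nuclei held 43.2, 36.8 and 43.1 CPM in CO and 60.1, 15.8 and 18.1 CPM in KO, which was 124.5% ± 33.9 (SD, n = 6) of the tumor level. In both classes KO replicates 2 and 3 were below every CO library, and KO replicate 1 was not. In T/NK nuclei Igf2bp3 stood at 127.0% ± 53.6 of the tumor level, from 47 UMIs. Per nucleus the order was the other way around, with 0.198 Igf2bp3 UMIs in a tumor nucleus and 0.0566 in a macrophage nucleus, at the greater depth of tumor nuclei. Malsu1, a gene for a mitochondrial ribosome assembly factor that overlaps Igf2bp3 on the opposite strand, was counted at 39.6 CPM in tumor and 49.1 CPM in macrophage nuclei, and its part in the Igf2bp3 counts was not tested.

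Hmga1 (ENSMUSG00000046711, chr17:27556497-27563674, plus strand), the shortest gene of the set, was likewise not confined to tumor nuclei. Its levels were 32.45, 37.3 and 25.6 CPM in CO tumor nuclei and 38.8, 15.6 and 21.5 CPM in KO, and the groups overlapped. Macrophage nuclei held 28.2, 37.5 and 26.1 CPM in CO and 36.6, 18.1 and 28.1 CPM in KO, or 105.2% ± 16.0 of the tumor level. Hmga1b, a near-identical copy elsewhere in the genome, held 251 UMIs in tumor nuclei against 1950 for Hmga1, and reads that fit both could have been split or dropped, so the Hmga1 level is uncertain.

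Lin28b (ENSMUSG00000063804, chr10:45376620-45486395, minus strand) was sparse, with 911 UMIs in all tumor nuclei. It was counted at 15.4, 11.9 and 8.60 CPM in CO tumor nuclei and 22.8, 8.92 and 9.15 CPM in KO, with KO replicate 1 highest. Its macrophage level was 45.2% ± 18.1 of the tumor level, from 53 UMIs. Lin28a, the other gene of the pair, held 11 UMIs in tumor nuclei. Plagl1 (ENSMUSG00000019817, chr10:13060504-13131694, plus strand) was counted at 64.2, 76.0 and 49.2 CPM in CO and 66.8, 69.6 and 68.6 CPM in KO tumor nuclei. It stood at 32.3% ± 8.9 of that level in macrophage nuclei, above the tumor list in 6 of 6 libraries, and at 39.0% ± 22.6 in T/NK nuclei.

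**Figure D1:**
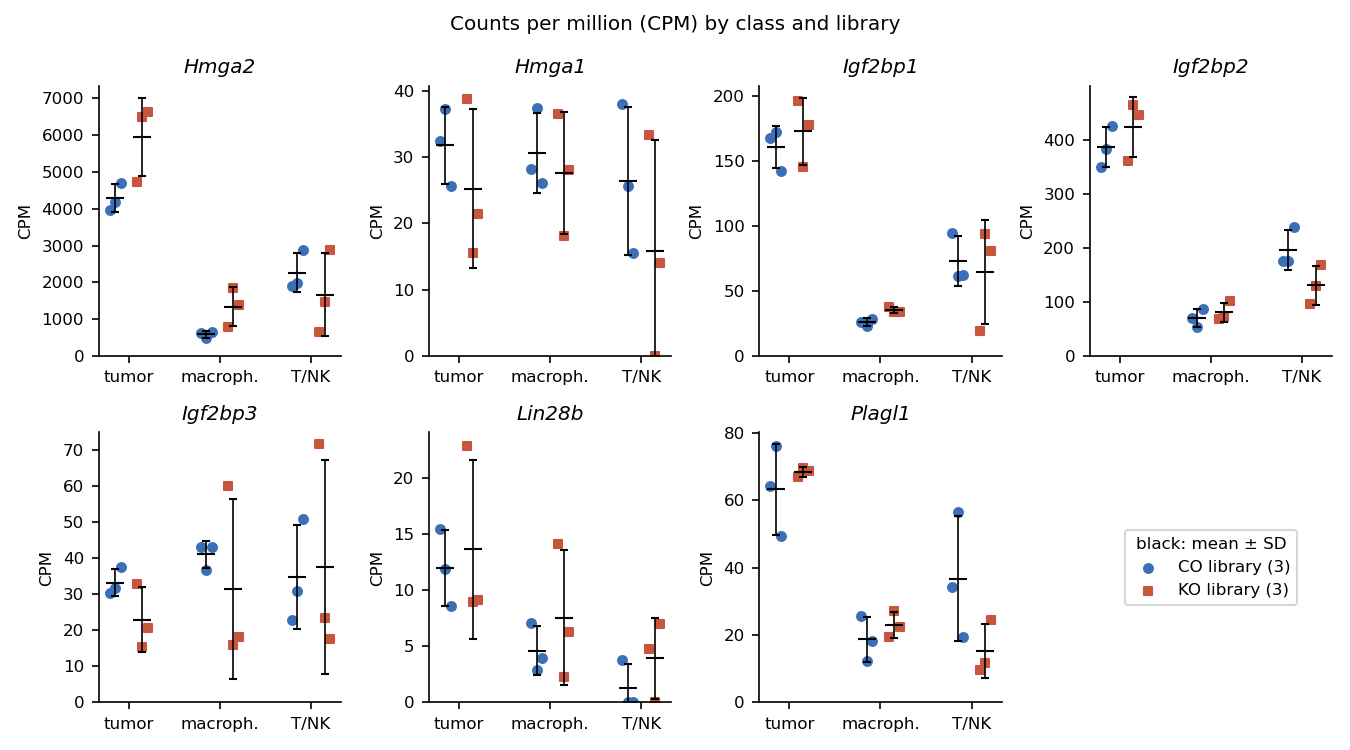
Level of each gene in CPM (linear axis from 0, a different scale in each panel) by nucleus class, with 1 point per library (CO circles, KO squares) and the mean ± SD of 3 libraries in black. Hmga2, Igf2bp1, Igf2bp2, Plagl1 and the sparse Lin28b were highest in tumor nuclei in all 6 libraries, whereas the Hmga1 and Igf2bp3 points of the 3 classes overlap.

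Splitting host nuclei by the number of tumor-marker UMIs they held separated these patterns further. Of 5014 macrophage nuclei, 2453 held 0 tumor-marker UMIs, 1707 held 1 to 2, 674 held 3 to 9 and 180 held 10 or more. The libraries took unequal parts of these strata, since KO replicates 2 and 3 together made up 6.1%, 34.9%, 83.7% and 26.7% of the nuclei. Levels were therefore taken within each library, as a percent of that library's own tumor level.

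In macrophage nuclei without a tumor-marker UMI, Hmga2 stood at 2.6%, 3.5% and 4.0% in CO libraries and at 3.7%, 12.7% and 12.5% in KO libraries, with KO replicates 2 and 3 apart from the other 4. With 1 to 2 tumor-marker UMIs it was nearly the same, at 2.7%, 3.7% and 5.8% in CO and 4.2%, 9.9% and 14.8% in KO. These values were above those without a tumor-marker UMI in 5 of 6 libraries, by small amounts. Hmga2 was above the stratum before in 6 of 6 libraries at 3 to 9 UMIs (8.9% to 58.4%) and again at 10 or more (61.2% to 117.3%). KO replicate 2 differed little over the first 3 strata, at 12.7%, 9.9% and 13.0%. Mecom and Slit2, which the split itself orders, averaged 4.9% and 8.1% at 1 to 2 UMIs and 75.1% and 74.4% at 10 or more. Median UMIs per nucleus also increased, from 1102 to 3815.5.

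Igf2bp1 and Igf2bp2 gave no clear step between the first strata. Igf2bp2 was at 9.4% ± 7.3 (SD, n = 6) and then 7.8% ± 4.4 of the tumor level, higher in the second stratum in 4 of 6 libraries, and Igf2bp1 was at 7.0% ± 5.0 and 10.4% ± 5.9, higher in 3 of 6. At 10 or more tumor-marker UMIs they reached 77.5% ± 18.9 and 79.0% ± 15.8. Plagl1 was at 11.9% ± 7.0 in the first stratum.

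Igf2bp3 and Hmga1 were distributed otherwise. In macrophage nuclei without a tumor-marker UMI, Igf2bp3 stood at 165.3%, 106.4% and 165.8% of the tumor level in CO libraries and at 163.1%, 0% and 31.0% in KO. Hmga1 stood at 71.9%, 90.8% and 161.4% in CO and at 102.9%, 0% and 59.6% in KO. Igf2bp3 exceeded its tumor level in 4 of 6 libraries and Hmga1 in 2. In KO replicates 2 and 3, 27 and 123 nuclei were in this stratum, with 0 and 1 UMIs of Igf2bp3, and a count of 0 in those 27 nuclei allows up to 98.6 CPM (3 counts, counting error only).

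T/NK nuclei were too few for most of these steps, with as few as 2 nuclei of a library in a stratum. Hmga2 stood at 1.7% to 18.6% of the tumor level without a tumor-marker UMI and at 2.1% to 20.2% with 1 to 2, higher in the second stratum in 3 of 6 libraries. At 10 or more it stood at 38.8% to 106.2%. Igf2bp3 held 15 UMIs in the 245 T/NK nuclei without a tumor-marker UMI, and Lin28b and Plagl1 held 0 there.

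**Figure D2:**
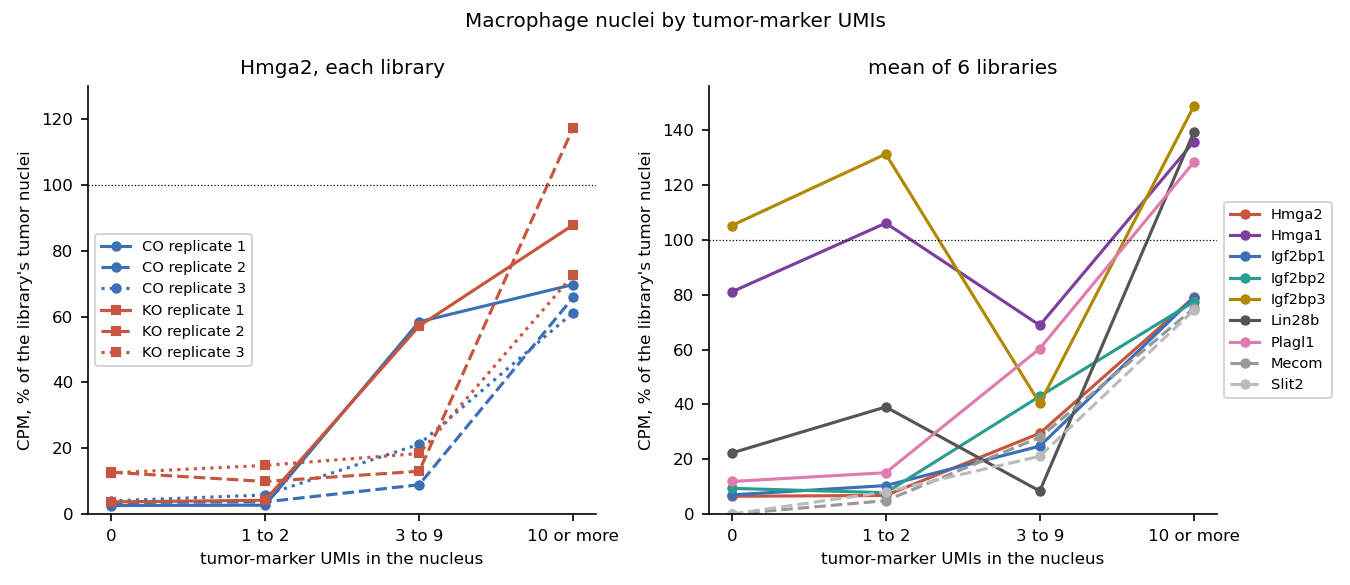
Level in macrophage nuclei split by their tumor-marker UMIs, as a percent of the level in tumor nuclei of the same library (dotted line, 100%), for Hmga2 in each library (left) and for each gene as the mean of 6 libraries (right), with Mecom and Slit2, the main genes of the split, dashed. Hmga2 is nearly level between 0 and 1 to 2 tumor-marker UMIs in most libraries and rises after that to 61.2% to 117.3%, whereas Igf2bp3 averages 105.3% and Hmga1 81.1% without a tumor-marker UMI.

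The small host classes were read against both Mecom and Slit2 on pooled counts, although endothelial cells are known to use Mecom themselves. In 170 endothelial nuclei, Hmga2 was at 33.0% of the tumor level beside 82.4% for Mecom and 36.4% for Slit2, and Igf2bp3 at 7.7% from 1 UMI. In 34 plasmacytoid dendritic nuclei, Hmga2 was at 5.6% beside 4.8% for Mecom and 6.3% for Slit2. In 54 skeletal muscle nuclei the values were 10.9%, 11.5% and 18.7%, in 54 dendritic nuclei 27.7%, 32.6% and 22.7%, and in 70 nuclei of the host fibroblast gate 32.1%, 38.8% and 75.4%. Clusters placed 67 of these 70 nuclei in the tumor class. They held the tumor list at 74.95 and the fibroblast list at 22.84 per 10000 UMIs, so their host identity is uncertain. Unassigned nuclei, which by their choice hold few tumor-marker UMIs (Mecom and Slit2 each at 9.0%), held Hmga2 at 33.9% and Lin28b at 318.8% of the tumor level. By library the Lin28b value ran from 61.4% to 991.0%, and CO replicate 2 alone held 53 of its 121 UMIs. In KO replicates 1 and 3 Lin28b was below the tumor level, at 18.9 against 22.8 CPM and 5.62 against 9.15 CPM.

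Nearly every tumor nucleus held Hmga2, but in widely different amounts. After each nucleus was thinned to 1000 UMIs, which left out 764 shallower tumor nuclei (500 of them among the 1312 of KO replicate 3), 90.8% of 8528 tumor nuclei (exact 95% interval 90.2 to 91.4%, counting error only) held a Hmga2 UMI, beside 29.0% of 3245 macrophage nuclei, and unthinned the values were 96.2% and 34.9%. The variance of the Hmga2 count was 2.81 times its mean, while for the other 6 genes it was 1.00 to 1.26 times, with Plagl1 highest. At counts as low as those of the other 6 genes, this ratio stays near 1 even where levels differ between nuclei. At 2000 UMIs, where 7857 tumor nuclei remained and 639 of KO replicate 3 were left out, the median Hmga2 count was 7, 7 and 8 UMIs for CO libraries against 8, 11 and 13 for KO, and 3.11% of these nuclei held none. The 5th and 95th percentiles were 1 and 21 UMIs and the highest nucleus held 44.

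**Figure D3:**
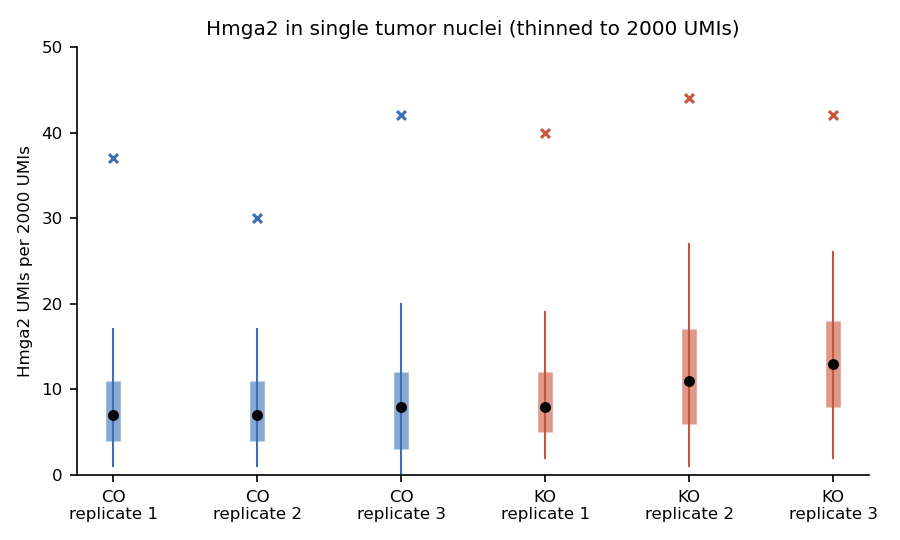
Hmga2 UMIs per tumor nucleus thinned to 2000 UMIs, by library, with the median (black point), the 25th to 75th percentile (thick bar), the 5th to 95th percentile (thin line) and the highest nucleus (cross). Medians lie between 7 and 8 in CO libraries and at 8, 11 and 13 in KO libraries, and the nuclei of all libraries overlap broadly.

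Shares of tumor nuclei with a UMI at 1000 UMIs were 33.2% ± 2.0 (SD, n = 6) for Igf2bp2, 14.7% ± 2.2 for Igf2bp1, 5.67% ± 0.85 for Plagl1, 3.00% ± 0.71 for Igf2bp3, 2.78% ± 1.30 for Hmga1 and 1.13% ± 0.54 for Lin28b. In macrophage nuclei the share was 4.01% ± 1.21 for Igf2bp3 and 2.69% ± 0.96 for Hmga1. For Hmga2 the CO libraries were at 89.2%, 88.7% and 85.4% and the KO libraries at 93.2%, 91.4% and 94.5%, a difference of 5.27 percentage points without overlap (exact permutation test, two-sided, p = 0.1, adjusted over the 7 genes 0.467). With 3 against 3 libraries 0.1 is the smallest p possible, so no difference could pass 0.05. For Igf2bp3 the CO libraries were at 3.15%, 3.69% and 3.68% and the KO libraries at 3.21%, 2.16% and 2.09% (exact p = 0.2, adjusted 0.467).

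The 6 genes other than Hmga2 were mostly found together in single tumor nuclei about as often as their separate shares give. For their 15 pairs, at 2000 UMIs, the number of nuclei with both was 0.88 to 1.43 times the product of the shares within libraries. Igf2bp1 and Igf2bp2 met in 1200 nuclei, against 1157 from the product. The highest ratio, for Hmga1 with Lin28b, rested on 16 nuclei. Hmga1 with Igf2bp1 (0.91 times) was above the product in 0 of 6 libraries. Igf2bp3 was above it in 5 of 6 with Igf2bp1 (1.14 times), Igf2bp2 (1.10 times) and Lin28b (1.39 times, 15 nuclei). The other pairs were above it in 1 to 4 libraries. Tumor nuclei with an Igf2bp1, Igf2bp2 or Plagl1 UMI held 1.06, 1.06 and 1.09 times the Hmga2 count of nuclei without one, higher in 6 of 6 libraries for each.

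States were compared for tumor and unassigned nuclei together, by a score of marker UMIs per 10000, which gives a range and no cell type. Clusters placed 1040 of the 2065 unassigned nuclei in the macrophage class and 590 in the tumor class. These comparisons are therefore not of tumor nuclei alone, and the part of the class mix was not tested. Plagl1 was higher in the range of interferon-response genes (Ifit1, Rsad2, Isg15 and others). That range held 301 nuclei, 83 of them unassigned, with 304 near its limit. Inside it Plagl1 was at 143, 379.8 and 76.7 CPM in CO and 239, 136 and 193 CPM in KO libraries, against 59.2, 65.9 and 48.5 and 62.2, 68.6 and 65.7 CPM outside. The level was higher inside in 6 of 6 libraries, by 1.58 to 5.76 times, although CO replicate 3 had 14 such nuclei and 5 UMIs. Hmga2 was at 4289 CPM inside and 4993 outside, and the tumor list at 7394 and 10579.

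Lin28b was higher in the range of immediate-early genes (Atf3, Fos, Jun, Egr1 and others), which held 145 nuclei, 86 of them unassigned, with 120 near its limit. It was at 105, 370.4 and 288 CPM in CO and 64.2, 43.7 and 14.3 CPM in KO libraries inside the range and at 13.3 CPM outside when pooled. The level was higher inside in 6 of 6 libraries, by 1.61 to 34.7 times, but from 106 UMIs in 25 nuclei, of which the highest nuclei held 25 and 19. Without those nuclei the pooled level was 89.3 CPM. KO replicates 1, 2 and 3 contributed 5, 5 and 1 UMIs, so the KO values are close to the level of single molecules. Hmga2 was lower inside the range in 6 of 6 libraries, at 2833 against 4998 CPM pooled. Nuclei in this range held the tumor list at 3391 CPM against 10578 outside, with median mitochondrial shares of 2.77% and 6.58%, and the part of cell identity or RNA quality in these values was not tested.

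**Figure D4:**
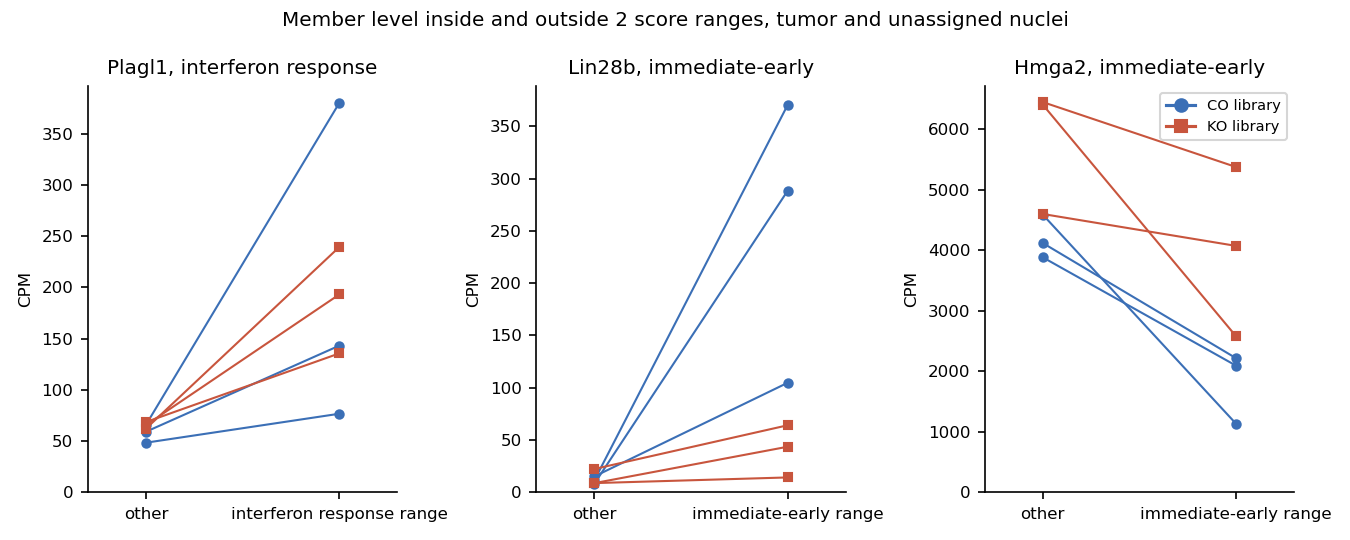
Level in CPM (linear axis from 0) of Plagl1 outside and inside the interferon-response range and of Lin28b and Hmga2 outside and inside the immediate-early range, with 1 line per library (CO circles, KO squares). Plagl1 and Lin28b go up and Hmga2 goes down in all 6 libraries, with Lin28b highest in the CO libraries from counts of 14 to 53 UMIs.

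In the range of cycling genes (1662 nuclei, 240 of them unassigned, 1522 near the limit), 3 genes were higher in 6 of 6 libraries by small factors. Hmga2 was at 5241 CPM inside and 4925 outside, Hmga1 at 35.3 and 28.7, and Igf2bp1 at 182 and 163. Igf2bp2 was at 383 inside and 397 outside, higher inside in 1 of 6 libraries. Plagl1 was at 68.5 and 66.2 when pooled, but was also higher inside in 1 of 6 libraries only, CO replicate 2 (107 and 71.6 CPM). At 2000 UMIs, tumor nuclei with a UMI of Pde10a, Col12a1 or Gpm6b held 0.83 times the Hmga2 level of the rest, lower in 6 of 6 libraries, and 1.13 times the Igf2bp2 level. Nuclei with a UMI of Msln, Pthlh or Crabp1 held 0.84 times the Igf2bp2 level, lower in 6 of 6 libraries, and 1.46 times the Lin28b level, higher in 6 of 6. For Lin28b the ratio by library ran from 1.04 to 2.93, at low pooled levels of 17.1 and 11.7 CPM. Nuclei with a UMI of Etv4 or Adamtsl5 held 0.88 to 1.10 times the level of each of the 7 genes. Pde10a, Gpm6b, Msln, Pthlh and Crabp1 also belong to the tumor list that defined the class.

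The question whether the host deletion went with a change of these genes was put to the summed counts. In tumor nuclei 0 of 7 genes were called at a log2 fold change of at least 0.58 in size and an adjusted p of at most 0.05, with 0% of all 13072 genes called by edgeR. At an unadjusted p under 0.05 the count was 855 of all genes and 0 of the 7, and DESeq2 called 26 genes, none of the 7. On the log2 scale, Igf2bp3 was at -0.48 (SE 0.26, edgeR adjusted p = 0.589), Hmga1 at -0.29 (SE 0.33), Lin28b at 0.23 (SE 0.41), Igf2bp2 at 0.20 (SE 0.20), Plagl1 at 0.17 (SE 0.20) and Igf2bp1 at 0.16 (SE 0.17). The biological coefficient of variation between libraries was 28% in tumor nuclei.

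Without KO replicate 1, 18.4% of 13214 genes were called in tumor nuclei, among them Igf2bp3 (-0.80 on the log2 scale, SE 0.17, edgeR adjusted p = 0.0341). Hmga2 was then at 0.70 (adjusted p = 0.0607) and Hmga1 at -0.71 (adjusted p = 0.0601), and Lin28b changed sign to -0.34. With 18.4% of all genes called, 1 called gene of 7 is near the background.

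In macrophage nuclei 0 of the 6 genes that passed the filter on low counts were called, with 0% of 10100 genes called by edgeR, and Lin28b was not tested there. At an unadjusted p under 0.05 the counts were 556 of all genes and 1 of the 6, and DESeq2 called 8 genes, none of the 6. Hmga2 was at 1.20 on the log2 scale (SE 0.34, unadjusted p = 0.00593, edgeR adjusted p = 0.806, DESeq2 adjusted p = 0.157) and Igf2bp1 at 0.46 (SE 0.25, edgeR adjusted p = 0.806), and for both every KO library was above every CO library, as for 6.34% of all genes. The groups overlapped for both genes with classes from clusters, for Hmga2 with the stricter filter (500 genes, 5% mitochondrial) and for Igf2bp1 with no doublet removal. The tumor list in the same macrophage nuclei was at 1498, 949.8 and 1859 CPM in CO and 1153, 3496 and 2548 CPM in KO, highest in KO replicates 2 and 3, as was Hmga2. Its part in the Hmga2 difference was not tested. Without KO replicate 1, 15% of 10182 genes were called, among them Hmga2 (1.51, SE 0.22, edgeR adjusted p = 0.00177) and Igf2bp3 (-1.16, SE 0.29, adjusted p = 0.0195). In the sum of all nuclei 0 of 7 genes were called, with 0% of 13643 genes called by edgeR, 666 at an unadjusted p under 0.05 and 13 by DESeq2. There Hmga2 was at 0.57 on the log2 scale, with SE 0.34 and an edgeR adjusted p of 0.668, and fewer nuclei of a class cannot be told apart from less RNA per nucleus in that sum.

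**Figure D5:**
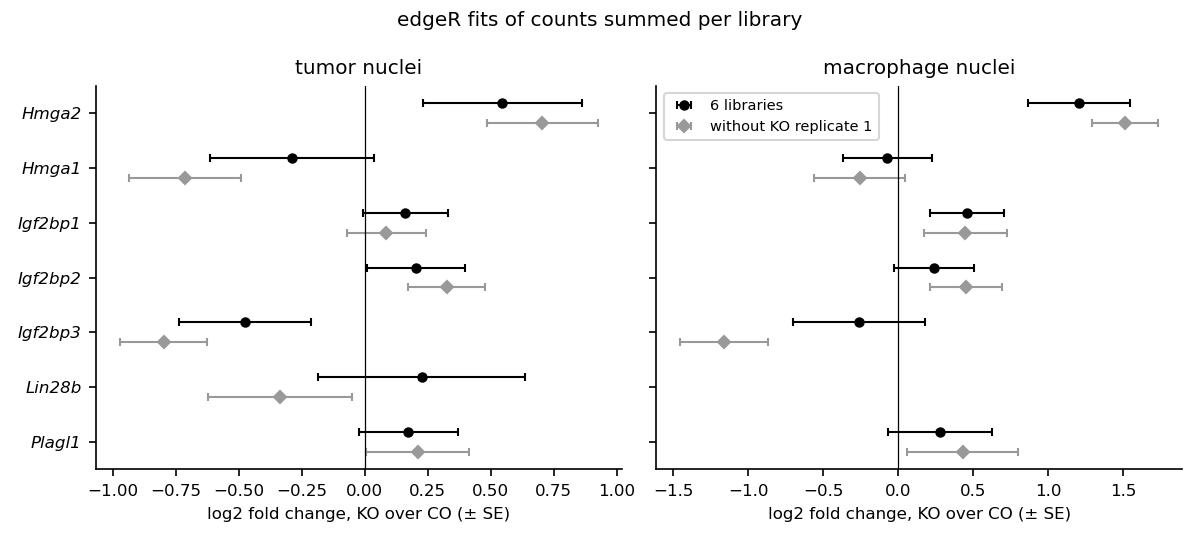
Log2 fold change of KO over CO (± SE) of each gene in tumor (left) and macrophage nuclei (right), from edgeR fits of all 6 libraries (black circles) and without KO replicate 1 (gray diamonds). None of the black points passed the test, and the gray points of Igf2bp3 in both classes and of Hmga2 in macrophage nuclei did.

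Genes around the 7 were described from 4 lists by the same fit in tumor nuclei, where 0 members of any list were called and the median log2 fold change of all genes was -0.02. Of the let-7 processing list, which cuts, exports and loads the microRNA or tails its precursor, 13 of the 15 genes found in the files were tested with a median of 0.26, from Ddx5 (-0.17, SE 0.28) and Tarbp2 (-0.03, SE 0.29) to Dgcr8 (0.47, SE 0.22) and Ddx17 (0.52, SE 0.27). None reached an unadjusted p under 0.05. Of 26 textbook let-7 targets, 24 were tested with a median of 0.08, from Hras (-0.91, SE 0.49) and Ccnd2 (-0.53, SE 0.24) to Igf1r (0.48, SE 0.25) and Acvr1c (0.80, SE 0.41). Acvr1c was barely counted, at TMM-scaled levels of 0.79, 0.60 and 1.37 CPM in CO and 1.42, 1.57 and 1.65 CPM in KO. At an unadjusted edgeR p under 0.05 stood 1 of the 24, beside 6.54% of all genes.

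Of the list of imprinted growth genes and neighbors of Plagl1, 10 of the 13 genes found in the files were tested, with a median of -0.69 and 9 of 10 below 0. At an unadjusted p under 0.05 stood 4 of them, beside 6.54% of all genes. Cdkn1c, an imprinted cyclin-dependent kinase inhibitor, had the lowest value (-2.28, with SE 0.50 and an edgeR adjusted p of 0.589), with TMM-scaled levels of 7.48, 6.84 and 18.7 CPM in CO and 1.35, 2.62 and 2.83 CPM in KO. Dcn, which encodes the matrix proteoglycan decorin and is also a marker of the host fibroblast list, was next (-1.56, SE 0.44), with 16.1, 19.1 and 38.5 CPM in CO and 4.46, 10.2 and 10.2 CPM in KO. For both genes every KO library was below every CO library, as for 4 of the 10 genes in all and for 7.57% of all genes tested. Peg10 (-0.08, SE 0.28) and Phactr2 (0.95, SE 0.29) were at the other end. Phactr2 was also among the 4 genes at an unadjusted edgeR p under 0.05, and it was the 1 gene of the list with every KO library above every CO library. Of 20 other RNA-binding proteins that set messenger stability, all 20 were tested with a median of 0.12, from Ybx1 (-0.50, SE 0.33) and Khsrp (-0.40, SE 0.20) to Pum2 (0.53, SE 0.28) and Msi2 (0.57, SE 0.29). In macrophage nuclei the 4 lists also had 0 genes called, with medians of 0.15, 0.08, -0.09 and 0.13 beside -0.01 for all genes.

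The genes most like each of the 7 were taken by Pearson's r of log2(CPM + 1) over 18 sums (3 classes in 6 libraries) among 12288 genes. These points share libraries and classes and carry no p. Hmga2 was nearest to Slc20a2 (r = 0.980), Sgcd (0.978) and Pard3 (0.978), Igf2bp1 to Mapk6 (0.975), Zmat3 (0.968) and C77080 (0.968), Igf2bp2 to Osbpl6 (0.989), Sh3d19 (0.979) and Yes1 (0.976), and Plagl1 to Onecut2 (0.931), Epb41l3 (0.931) and Slc6a17 (0.928). Hmga1 was nearest to Rnf126 (0.976), Tmem199 (0.976) and Flii (0.975), Igf2bp3 to Bzw1 (0.874), Selenoo (0.868) and Exosc3 (0.855), and Lin28b to Mterf1b (0.888), Glod5 (0.885) and Trp53rkb (0.872). Within the set, Hmga2 stood at r = 0.941 with Igf2bp2, 0.916 with Igf2bp1 and 0.823 with Plagl1, but at 0.269 with Lin28b, -0.054 with Hmga1 and -0.499 with Igf2bp3.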

How the data were processed

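The authors aligned reads of 10x Chromium 3′ libraries to GRCm38 and counted them with Cell Ranger (version 3.0.2 per the submitters' notes, another in the file headers). The deposited matrices hold raw UMI counts (whole numbers, at least 500 per barcode), and the treatment of intronic reads is not given in the sources used here. Nuclei with 100 to 7500 genes and under 20% mitochondrial counts were kept (18014 of 18865), and 500 were removed as the highest Scrublet scores (0.8% per 1000 barcodes, scanpy 1.11.5), since the automatic threshold marked 11 (0.061%). Classes needed 3 marker UMIs and 10 to 40 per 10000, with 1111 macrophage and 1050 tumor-gate nuclei within 0.8 to 1.25 times the limit. Leiden clusters (leidenalg 0.10.2) gave the same class in 84.6%.

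Counts were summed per library and class and tested with edgeR 4.0.16 (TMM, filterByExpr, quasi-likelihood F-test, R 4.3.3), with DESeq2 1.42.0 as an alternative and Benjamini-Hochberg adjustment over all genes, tested on simulated data. Classes with at least 20 nuclei in every library entered the likeness. Named genes were the 7 members, the 2 highest and lowest log2 fold changes of each list, and the 3 most alike genes among those with at least 100 UMIs in tumor nuclei. Members, lists and markers were chosen with earlier results of these data known, and score limits for states (30, 30 and 40 per 10000) and the exclusion of recurrent barcodes after seeing the data. Sequences came from RefSeq (GRCm38.p6) and GENCODE vM21.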

Additional observations from a re-analysis of the deposited data

How the results depend on the processing

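Counts of called genes were 0 under every alternative run, except as follows. DESeq2 called 26 genes in tumor, 8 in macrophage and 13 in all nuclei, and with no filter on low counts 6 were called in macrophage nuclei. Leaving out 1 library at a time gave 0 to 2434 in tumor, 0 to 1523 in macrophage and 0 in all nuclei, with both high counts without KO replicate 1. The replicate block called 0 genes in each class. With the block, 1806 genes in tumor nuclei had an unadjusted edgeR p under 0.05, against 855 without it. Deviations of same-numbered libraries correlated at 0.532, -0.235 and 0.384 in tumor nuclei. Median mitochondrial shares were 6.80%, 4.05% and 1.34% in CO replicates 1, 2 and 3 and 6.25%, 3.83% and 0.888% in KO. Whether the numbers mark pairs or a shared batch cannot be told from so few libraries.

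Of 273 refitted log2 fold changes of the 7 genes, 260 kept their direction and their side of the threshold, 3 became called (given in the text, without KO replicate 1) and 10 changed sign. With no doublet removal, Hmga1 in macrophage nuclei was 0.04 and Lin28b in all nuclei -0.0005, and with the replicate block Lin28b was -0.06. Leaving out 1 library gave Lin28b -0.34 to 0.47 in tumor and -0.52 to 0.27 in all nuclei, Plagl1 -0.01 to 0.32 in all nuclei, and Hmga1 -0.26 to 0.11 and Igf2bp3 -1.16 to 0.07 in macrophage nuclei.

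Levels as a percent of those in tumor nuclei moved by more than 1 SD under 2 settings and in 1 other case. With classes from clusters, macrophage values were 9.19 for Hmga2, 11.1 for Igf2bp1, 11.2 for Igf2bp2, 26.2 for Lin28b, 15.7 for Plagl1 and 9.44 for the tumor list. T/NK values were 69.4 for Hmga2, 68.5 for Igf2bp1, 67.0 for Igf2bp2, 66.9 for Lin28b and 67.9 for the tumor list. The T/NK class from clusters took in a cluster of 300 nuclei that held the tumor list at 96.7 per 10000 UMIs. Its T/NK list stood at 13.3, beside a limit of 10, so these values are not those of T/NK nuclei alone. With at least 500 genes and under 5% mitochondrial counts, macrophage values were 13.3 for Igf2bp2, 23.4 for Plagl1 and 12.1 for the tumor list, and T/NK values 23.7 for Igf2bp2 and 18.2 for the tumor list. With no doublet removal Igf2bp2 was at 22.6 in macrophage nuclei. The cause was not tested.

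Differences of thinned shares (KO minus CO, percentage points) changed sign for Igf2bp1 (0.04) with no doublet removal (-0.12) and clusters (-0.05), and for Igf2bp2 (0.05) with the stricter filter (-2.73) and no doublet removal (-0.12). Leaving out 1 library gave -1.39 to 0.08 for Hmga1, -1.51 to 1.16 for Igf2bp1 and -1.16 to 1.33 for Igf2bp2. Keeping the recurrent barcodes, an alternative added after seeing the data, changed no call and moved no level by over 1 SD. Counts under about 100 UMIs per class, as for Lin28b outside tumor nuclei, limit what can be told.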
